A study of Homo sapiens with 4 samples.

Results

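The genes described here are those of the 16p11.2 neurodevelopmental interval. They were chosen by position, as every row of the deposited count table on chromosome 16 with a start between 29500000 and 30250000 (GRCh38), and 35 of the 24014 genes in the table met this rule. RNA had been sequenced from SK-N-SH cells, an established human neuroblastoma line, in 2 groups of 2 libraries. In the control group, cells labelled wild type received an empty lentiviral vector, and in the AP1AR-DT_OE group they received a lentivirus carrying the long non-coding RNA (lncRNA) AP1AR-DT, labelled AC109347.1. The study asked which genes change when this lncRNA is gained. The construct was the cDNA of the lncRNA in a pCDH expression vector, so it models gain of the RNA from an added copy in a tumour line and not from its own locus. AP1AR-DT_OE replicate 2 is AC109347.1 in its title, which was followed, but AC109347.2 in its other labels.

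The 16p11.2 interval lies between blocks of near-identical duplicated sequence that can misalign in meiosis, and its recurrent deletion and reciprocal duplication are known for their association with autism, developmental delay, schizophrenia, epilepsy and changes in head size and body weight. Its genes have no shared biochemical function. They include synaptic proteins, signalling enzymes, chromatin and transcription proteins, metabolic enzymes and several lncRNAs that start head to head with a coding gene, and are of interest as a unit because a person who carries the deletion or duplication has an altered copy number of all of them together.

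The 4 libraries held between 21988065 and 26184599 counts. The introduced lncRNA AP1AR-DT (ENSG00000260526) was counted 3 and 18 times in control and 680 and 1065 times in AP1AR-DT_OE. Its Log2FC (AP1AR-DT_OE over control) was 6.63, with a standard error (SE) of 0.64. The adjusted p was 3.64e-21 by the DESeq2 Wald test. Control 1 was under and control 2 just above the limit of 12 counts explained below, so the size of this Log2FC is uncertain. The adrenergic neuroblastoma markers DBH, GATA3, HAND2 and PHOX2A had counts in every library, and TH had no row. The 4 mesenchymal markers (FN1, PRRX1, VIM and YAP1) and 2 neuronal markers (GAP43 and STMN2) were also counted in every library, and the 4 immune markers had no row. None of these marker genes was called, where a call is an adjusted p under 0.05 over all genes. PRRX1 was lower in both AP1AR-DT_OE libraries (normalized counts of 1241 and 2246, against 2770 and 11358 in the controls, Log2FC -2.02, unadjusted p = 0.000987 and adjusted p = 0.43 by the DESeq2 Wald test), 1 of the 4 mesenchymal markers without overlap. The 4 mesenchymal markers together summed to 128132 and 98113 normalized counts in control and 124388 and 107273 in AP1AR-DT_OE, which overlap. The adrenergic marker GATA3 was also lower without overlap (2649 and 2656 in control, 2520 and 2640 in AP1AR-DT_OE, Log2FC -0.04). Of all genes with a mean of at least 50 normalized counts, 9.45% did not overlap. STMN2 followed the replicate number, with 282 and 1417 in control and 320 and 1115 in AP1AR-DT_OE. Normalized read counts are counts divided by a size factor for each library, and are given as the values in control 1, control 2, AP1AR-DT_OE 1 and AP1AR-DT_OE 2, or as mean ± SD with n = 2. Nothing in the labels says that the 2 libraries of a group came from separate cultures, so the p-values measure only the spread between these libraries.

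Among the 35 genes, 25 are protein-coding, 7 are lncRNAs and 3 are transcribed pseudogenes, by the GENCODE 44 annotation mapped to GRCh37. The plus strand carries 18 of them and the minus strand 17. A mean of at least 50 normalized counts was reached by 26 (74.3%), against 55.4% of all genes. The other 9 stood under that level. Of these, 5 had at most 12 counts in every library, which is the limit that an observation of 0 allows (3 read pairs, each worth about 4 counts in this table), and no fold change was read for them. They were the pseudogene RP11-345J4.8 (SMG1P2), SPN (the leukocyte surface sialophorin), the testis gene C16orf92, and the lncRNAs RP11-455F5.4 and RP11-455F5.5 (CORO1A-AS1). SPN had 4 counts in each control and 12 and 11 in AP1AR-DT_OE, all at or under that limit. Another 2, the pseudogene SLC7A5P1 and RP11-347C12.1 (NPIPB13), were at or under it in part of the libraries. RP11-347C12.1 had 24, 8, 0 and 12 counts. RP11-455F5.3 (16, 35, 29 and 18 counts) and GDPD3 (36, 26, 32 and 40 counts), a metabolic enzyme, were above it in all 4 libraries and had overlapping groups. No row in the range was found for PAGR1, ZG16, C16orf54, BOLA2B, SLX1A alone or SULT1A3 alone, and these were not analysed here.

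A single gene of the interval was called between the groups, the lncRNA AC009133.14 (ENSG00000238045, now named MVP-DT), which was lower in the AP1AR-DT_OE libraries. Of all genes, 0.137% were called (33 of 24014) and 0.0541% were called lower (13). At an unadjusted p under 0.05, the interval again held 1 gene, with 0.816% of all genes at that level. The groups did not overlap in 2 of the 26 genes with a mean of at least 50, AC009133.14 and the pseudogene transcript RP11-347C12.3, both lower in AP1AR-DT_OE, while 9.45% of all genes at that level did not overlap (1257 of 13298). The median Log2FC of these 26 genes was 0.03, and that of all 13298 was -0.02.

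**Figure D1:**
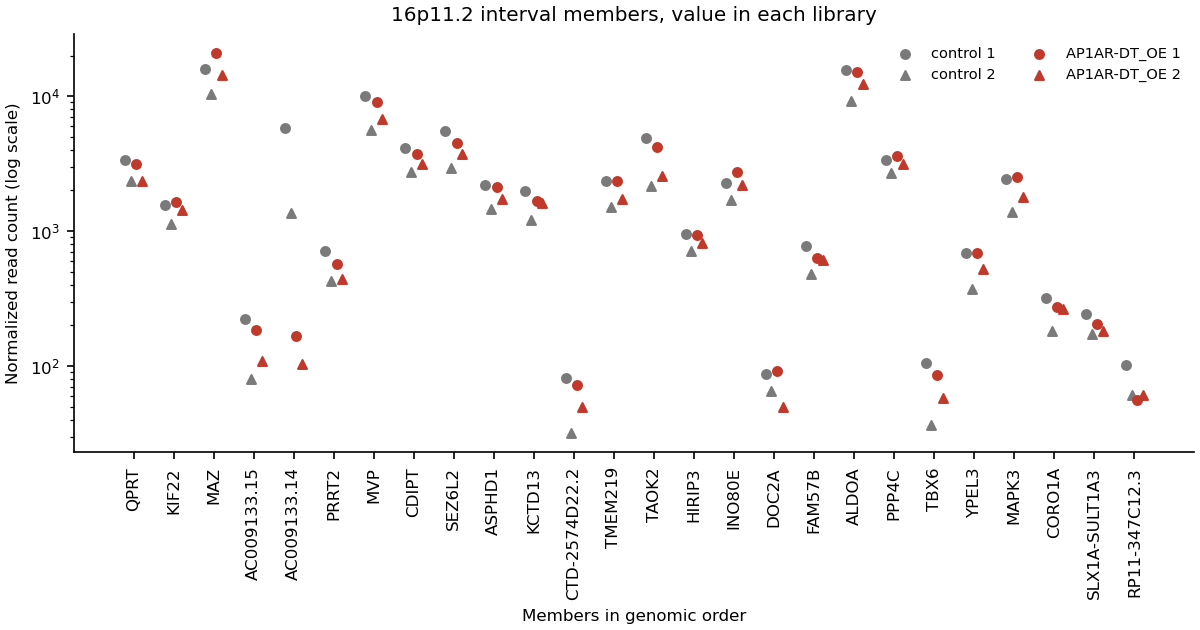
Normalized read counts (log scale) of the interval's 26 genes with a mean of at least 50, in chromosomal order, with 1 point for each library: control 1 and 2, AP1AR-DT_OE 1 and 2. The 2 groups stand far apart only at AC009133.14, where the control libraries stand at 5821 and 1372 and the AP1AR-DT_OE libraries at 167 and 104. Control 2 lies below control 1 in all 26 genes.

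AC009133.14 lies on the minus strand at chr16:29808636-29821252, where it overlaps MAZ, PRRT2 and MVP, all on the plus strand. It had 5111 and 1778 counts in the control libraries and 152 and 105 counts in the AP1AR-DT_OE libraries. Both controls were far above both AP1AR-DT_OE libraries, and the 2 controls differed from each other more than the 2 AP1AR-DT_OE libraries did. As normalized counts these were 5821, 1372, 167 and 104, or 3596 ± 3146 (SD, n = 2) in control and 135 ± 44.2 (SD, n = 2) in AP1AR-DT_OE. The Log2FC was -4.73 (SE 0.62, adjusted p = 1.44e-10 by the DESeq2 Wald test). Libraries carrying the same replicate number differed by -5.13 (number 1) and -3.72 (number 2) on the log2 scale. The size of the difference depended on the control library, since leaving out control replicate 1 gave a Log2FC of -3.34 and leaving out control replicate 2 gave -5.42, both past the threshold. It was -5.12 without AP1AR-DT_OE replicate 1 and -4.44 without AP1AR-DT_OE replicate 2. By edgeR's quasi-likelihood test, which called 0 of all genes (112 at an unadjusted p under 0.05), the Log2FC was -4.72 with an unadjusted p of 0.000899 and an adjusted p of 1.00. Over the other 13 alternatives, the adjusted p of AC009133.14 from DESeq2 or edgeR ran from 1.42e-67 to 0.000113. Of the 4 mesenchymal markers, PRRX1 was also lower in AP1AR-DT_OE without overlap. FN1 (Log2FC 0.06), VIM (0.12) and YAP1 (-0.20) had overlapping groups. Control 1 was the higher control for AC009133.14, and control 2 was the higher control for PRRX1. The part of a shift in cell state was not tested. In bulk RNA such as this, fewer cells with the transcript and less of it per cell cannot be told apart.

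MAZ, the neighbour whose exons AC009133.14 overlaps most, had more counts in AP1AR-DT_OE, without passing the test. MAZ (ENSG00000103495, plus strand, chr16:29806106-29811164) encodes a zinc finger transcription factor that binds GC-rich promoters. It had 14052 and 13444 counts in control and 19126 and 14541 in AP1AR-DT_OE. Each AP1AR-DT_OE library was above the control library with its number, but the groups overlapped after normalization (16004 and 10371 in control, 20979 and 14433 in AP1AR-DT_OE). MAZ was not called, with a Log2FC of 0.43 (SE 0.46, unadjusted p = 0.356 and adjusted p = 1.00 by the DESeq2 Wald test), and it was higher by 0.39 and 0.48 within the 2 replicate numbers.

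By the GENCODE 44 exons on GRCh37, 1536 bases of the AC009133.14 exons lay antisense to MAZ exons. This was 43.7% of the exon bases of MAZ and 38.0% of those of AC009133.14 (4039 bases), and 786 of the shared bases were coding in MAZ. AC009133.14 shared 365 exon bases with PRRT2, none of them coding, and 0 with MVP, whose gene body it overlapped by 859 bases. No source used here gives the strand setting of the counting, and the library kit named in the labels is not described as stranded, so reads from an overlap between genes on opposite strands cannot be told apart in these counts.

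**Figure D2:**
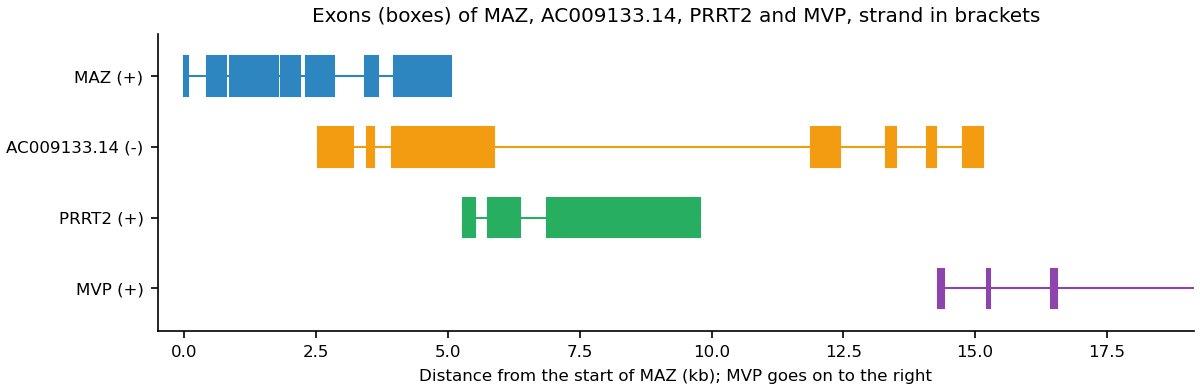
Exons of MAZ, PRRT2, MVP (plus strand) and AC009133.14 (minus strand) drawn to scale against the distance in kilobases from the start of MAZ. AC009133.14 exons cover part of the MAZ exons (1536 bases) and of the PRRT2 exons (365 bases) and none of the MVP exons.

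The counts of AC009133.14 and MAZ were also added together, a sum chosen after their values were seen. From control 1 to AP1AR-DT_OE 1, the count of AC009133.14 fell by 4959 and MAZ had 5074 more. In the libraries numbered 2, the count of AC009133.14 fell by 1673 and MAZ had 1097 more. The sum of both genes was 19163 and 15222 counts in control and 19278 and 14646 in AP1AR-DT_OE, so it differed by 115 and -576 counts within the numbers. The libraries numbered 2 differ in size factor (1.296 and 1.008), and as normalized counts AC009133.14 fell by 1267 there while MAZ had 4062 more. In number 1 the normalized count of AC009133.14 fell by 5654 and MAZ had 4975 more. After normalization the log2 ratio of the sum was 0.09 between group means, with -0.05 in number 1 and 0.31 in number 2. AC009133.14 made up 26.7% of this sum in control 1 (95% Wilson interval 25.4 to 27.9) and 11.7% in control 2 (10.7 to 12.7). In AP1AR-DT_OE its share was 0.788% (0.575 to 1.08) and 0.717% (0.485 to 1.04). The intervals count read pairs and cover counting error only. Whether the division of overlapping reads between the 2 genes has a part in the lower count of AC009133.14 was not tested.

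**Figure D3:**
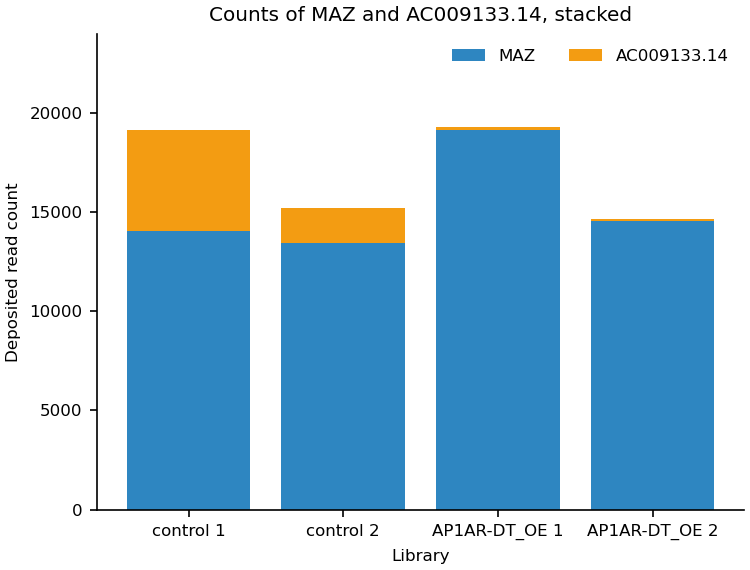
Deposited counts of AC009133.14 and MAZ in each of the 4 libraries, stacked, on an axis that starts at 0. AC009133.14 falls from 5111 and 1778 counts in control to 152 and 105 in AP1AR-DT_OE, while the stacked total is 19163 and 15222 in control and 19278 and 14646 in AP1AR-DT_OE.

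None of the other genes around AC009133.14 was called. PRRT2, a membrane protein of synaptic vesicle release whose variants cause paroxysmal movement disorders and infantile seizures, had 711, 430, 571 and 442 normalized counts (Log2FC -0.17, SE 0.50). MVP, the main protein of the cytoplasmic vault particle, starts inside the first part of AC009133.14 on the other strand. Its 10105, 5579, 9044 and 6815 normalized counts gave a Log2FC of 0.02 (SE 0.47). AC009133.15, a lncRNA antisense to MAZ on its upstream side, had 223, 80.2, 184 and 109 normalized counts (Log2FC -0.05, SE 0.67). All 3 had overlapping groups. The sum of AC009133.14, MAZ, PRRT2 and MVP was 28659, 23011, 28044 and 21957 counts, with a log2 ratio of 0.06 between the normalized group means.

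Apart from AC009133.14, the 25 genes with a mean of at least 50 had Log2FC values from -0.48 (RP11-347C12.3) to 0.43 (MAZ). Their SEs ran from 0.43 to 0.81, and the lowest unadjusted p among them was 0.356, that of MAZ. Their 95% intervals reached from -1.89 to 1.70 on the log2 scale, and for 9 of the 25 the whole interval lay between -1 and 1. For the rest, the interval reached past that size in at least 1 direction.

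**Figure D4:**
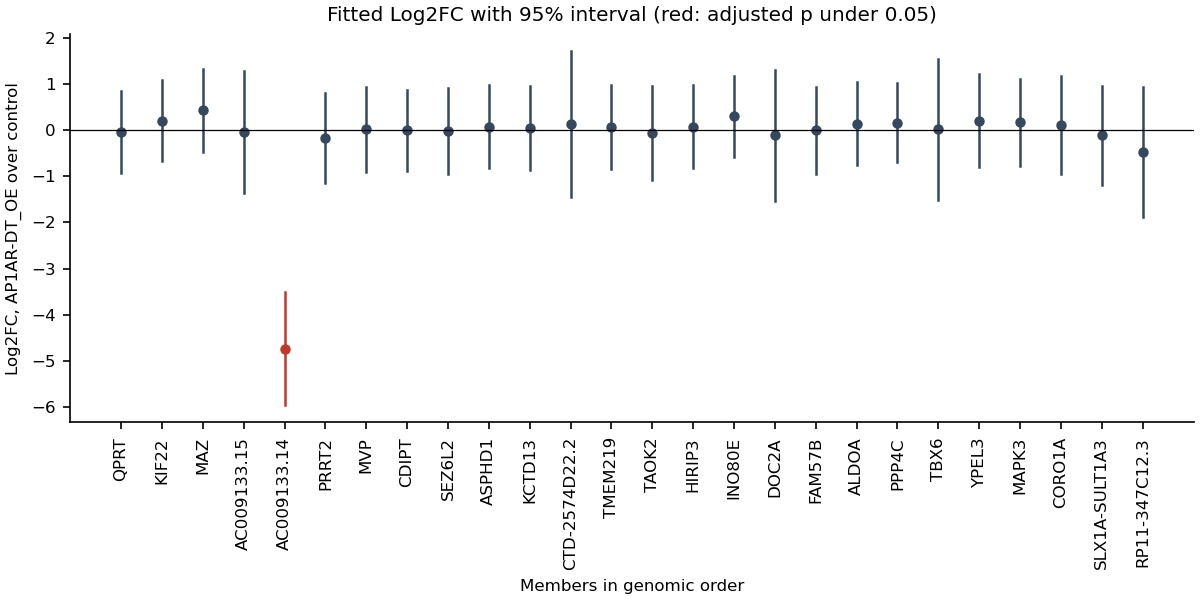
Log2FC (AP1AR-DT_OE over control) of the interval's 26 genes with a mean of at least 50, in chromosomal order, with bars for the 95% interval from the DESeq2 fit. AC009133.14 stands at -4.73 with an interval from -5.95 to -3.51, and the intervals of the other 25 genes all include 0.

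The 3 synaptic and neuronal genes, PRRT2, SEZ6L2 and DOC2A, all had Log2FC values under 0, and none passed the test. SEZ6L2, a membrane protein of neurons with complement-like domains, had 5479, 2918, 4526 and 3716 normalized counts (Log2FC -0.03, SE 0.48). DOC2A, a calcium sensor of spontaneous and asynchronous transmitter release, was the least abundant coding gene of the 26 per exon length. It had 86.6, 65.6, 91.0 and 49.6 normalized counts (Log2FC -0.11, SE 0.72).

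Among the 4 signalling genes, none was called and 3 had values above 0. MAPK3, which encodes the kinase ERK1, had 2444, 1375, 2500 and 1784 normalized counts (Log2FC 0.17, SE 0.48). TAOK2, a kinase of dendrite growth and of the p38 and JNK cascades, had 4924, 2154, 4221 and 2569 (Log2FC -0.06, SE 0.52), and control 1 was the highest library in it and control 2 the lowest. KCTD13, an adaptor of the CUL3 ubiquitin ligase that acts on RHOA, had 1979, 1216, 1683 and 1605 (Log2FC 0.04, SE 0.46). PPP4C, the catalytic subunit of protein phosphatase 4, had the narrowest error of the 25 (3344, 2700, 3599 and 3164 normalized counts, Log2FC 0.16, SE 0.43).

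The 4 transcription and chromatin genes, MAZ, INO80E, HIRIP3 and TBX6, all had values above 0, and none passed the test. INO80E, a subunit of the INO80 chromatin remodeller, came second to MAZ with 2282, 1712, 2722 and 2180 normalized counts (Log2FC 0.30, SE 0.45, unadjusted p = 0.507 by the DESeq2 Wald test). HIRIP3, which binds the histone chaperone HIRA, had 954, 710, 936 and 813 (Log2FC 0.07, SE 0.46). TBX6, the T-box factor of somite mesoderm, was low at 106, 36.3, 85.6 and 57.6 (Log2FC 0.02, SE 0.78).

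Of the 6 metabolic genes, 5 reached a mean of 50 and none was called. ALDOA, the glycolytic aldolase, had 15574, 9220, 15000 and 12242 normalized counts (Log2FC 0.14, SE 0.46). QPRT, an enzyme of NAD synthesis from quinolinate, had 3356, 2333, 3152 and 2350 (Log2FC -0.05, SE 0.45). CDIPT, which makes phosphatidylinositol, had 4114, 2760, 3711 and 3144, and its group means of 3437 ± 957 and 3428 ± 401 (SD, n = 2 each) were the closest as a ratio among the 26 genes. FAM57B (now TLCD3B), a ceramide synthase, and ASPHD1, an aspartate beta-hydroxylase domain protein, had Log2FC values of -0.01 (SE 0.48) and 0.08 (SE 0.46).

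The 5 genes of cytoskeleton, repair and cell structure were MVP, KIF22, CORO1A, YPEL3 and TMEM219, with values from 0.02 to 0.21 and no call. KIF22, a chromosome-arm kinesin of mitosis, had 1548, 1123, 1649 and 1430 normalized counts (Log2FC 0.21, SE 0.45). YPEL3, a small growth-suppressing protein, had 687, 369, 689 and 528 (Log2FC 0.21, SE 0.51). CORO1A, an actin regulator abundant in leukocytes, was present at 317, 181, 272 and 263 (Log2FC 0.11, SE 0.54), while the immune marker genes had no row. TMEM219, a receptor for IGFBP3, had 2350, 1512, 2332 and 1729 (Log2FC 0.07, SE 0.47).

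The readthrough SLX1A-SULT1A3 and RP11-347C12.3 lie in duplicated sequence at the high-coordinate edge, where reads can be divided among near-identical copies, so their counts are uncertain. Counts are uncertain in the same way for the low-count NPIPB13 at that edge, and for SMG1P2 and SLC7A5P1 toward the low-coordinate edge. SLX1A-SULT1A3 is annotated as a lncRNA that joins the genes of a DNA repair nuclease subunit and a catecholamine sulfotransferase. It had 243, 172, 204 and 181 normalized counts (Log2FC -0.11, SE 0.55). RP11-347C12.3 had 101 and 60.9 in control and 55.9 and 60.5 in AP1AR-DT_OE, so its groups were separated by less than 1 normalized count (Log2FC -0.48, SE 0.72, unadjusted p = 0.51 by the DESeq2 Wald test).

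Abundance per exon length, as the mean normalized count per exon kilobase over the 4 libraries, differed widely among the genes. MAZ was first at 4398 and ALDOA second at 3397, followed by MVP at 1284, PPP4C at 1172, CDIPT at 1143 and SEZ6L2 at 1011. In the same unit PRRT2 stood at 143, TBX6 at 23.0 and DOC2A at 11.5. AC009133.14 was at 890 per exon kilobase in the controls alone, beside 3755 for MAZ, 1277 for MVP and 152 for PRRT2. MAZ, ALDOA and MVP together gave 48.5% to 55.4% of the interval's counts in each library.

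The interval's share of the counts ran from 0.250% to 0.326% over the 4 libraries, and both ends were controls. Its 35 genes held 75460 and 65457 counts in control and 74130 and 62742 in AP1AR-DT_OE, or 0.326% and 0.250% of the library against 0.324% and 0.285%. The groups overlapped, and the log2 ratio of the mean shares was 0.08. No exact two-sided permutation test of 2 against 2 libraries can give a p below 0.333.

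Libraries of the same group also differed from each other in a shared direction across these genes. Control 2 was below control 1 in 26 of the 26 genes with a mean of at least 50, with a median log2 ratio of -0.71, while the median over all 13298 genes was -0.05. The flanks, 750 kb on each side of the interval, shifted in the same direction, with control 2 lower in 9 of 9 genes of the lower flank (median -0.77) and 29 of 30 of the upper flank (-0.81). AP1AR-DT_OE 2 was below AP1AR-DT_OE 1 in 25 of 26, the exception being RP11-347C12.3, with a median of -0.35 against -0.03 over all genes. Scaling by the total count in place of the size factor moved the control ratio to -0.33 for the interval and 0.33 for all genes, with 25 of 26 genes lower in control 2. The median GC content of these genes was 59.98%, against 49.0% over all genes with a mean of at least 50. With a GC correction, added after seeing the data, the SEs of these genes' Log2FC values were lower. That of MVP went from 0.47 to 0.23, and that of CTD-2574D22.2 from 0.81 to 0.72. The part of base composition in the differences between libraries was not tested.

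The 2 replicate numbers gave opposite signs for most of the genes. In the 25 genes other than AC009133.14, the log2 ratio ran from -0.86 to 0.39 between the libraries numbered 1 and from -0.40 to 0.67 between those numbered 2. The sign was opposite in 18 of the 25, positive in both for 6 (KIF22, MAZ, INO80E, PPP4C, YPEL3 and MAPK3) and negative in both for 1, RP11-347C12.3. With AC009133.14 included, opposite signs made up 69.2% of the 26 genes, beside 61.7% of all 13166 genes compared. The medians over the 26 genes were -0.15 and 0.32, and those over all genes -0.02 and 0.02. The flanks had medians close to these, at -0.15 and 0.24 below it and -0.19 and 0.31 above it. The pattern of a negative ratio in number 1 and a positive one in number 2 was found in 17 of 26 genes (65.4%), and in 33.8% of all genes. This pattern is not separate from the gaps within groups given above. The number 2 ratio is higher wherever the fall from control 1 to control 2 exceeds that from AP1AR-DT_OE 1 to AP1AR-DT_OE 2. The median log2 ratios of these 26 genes were -0.71 between the controls and -0.35 between the AP1AR-DT_OE libraries. The labels do not pair same-numbered libraries, so the excess over all genes is not a result of its own.

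**Figure D5:**
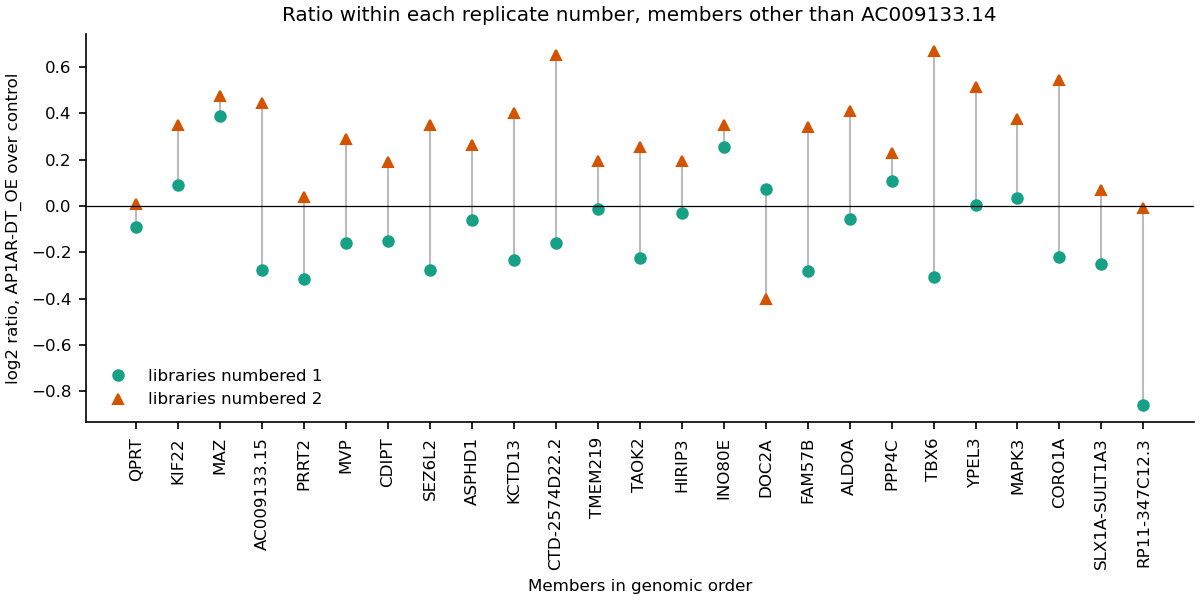
Log2 ratio of AP1AR-DT_OE to control normalized counts within replicate number 1 and within number 2, for the 25 genes other than AC009133.14, in chromosomal order. The number 1 ratios lie between -0.86 and 0.39 and the number 2 ratios between -0.40 and 0.67, with opposite signs in 18 genes.

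Genes that start within 1 kb of each other on opposite strands form 6 pairs in the interval, and 3 coding genes, MVP, KCTD13 and YPEL3, share such a start region with a lncRNA. The RefSeq start windows of the 3 lncRNAs and of INO80E are shown because each RefSeq window overlaps a window of the partner gene. Each is the RefSeq window on GRCh38.p14 from 250 bases before to 50 bases after the start, 5′ to 3′ on the strand of the named gene, with CpG dinucleotides in capitals. They are MVP-DT (chr16:29820318-29820617, minus strand), KCTD13-DT (chr16:29926025-29926324, plus strand), INO80E (chr16:29995991-29996290, plus strand) and YPEL3-DT (chr16:30096180-30096479, plus strand). The RefSeq start is the table's own 5′ end for YPEL3-DT. It lies 885 bases inside the counted gene for MVP-DT, 526 bases inside it for INO80E and 561 bases outside it for KCTD13-DT, so these 3 windows do not show the outermost start of the gene as counted.
MVP-DT: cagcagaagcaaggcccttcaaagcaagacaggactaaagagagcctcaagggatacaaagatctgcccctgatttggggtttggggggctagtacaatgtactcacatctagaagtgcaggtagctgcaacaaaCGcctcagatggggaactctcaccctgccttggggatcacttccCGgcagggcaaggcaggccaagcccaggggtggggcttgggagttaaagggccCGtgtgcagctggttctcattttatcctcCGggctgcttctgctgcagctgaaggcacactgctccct
KCTD13-DT: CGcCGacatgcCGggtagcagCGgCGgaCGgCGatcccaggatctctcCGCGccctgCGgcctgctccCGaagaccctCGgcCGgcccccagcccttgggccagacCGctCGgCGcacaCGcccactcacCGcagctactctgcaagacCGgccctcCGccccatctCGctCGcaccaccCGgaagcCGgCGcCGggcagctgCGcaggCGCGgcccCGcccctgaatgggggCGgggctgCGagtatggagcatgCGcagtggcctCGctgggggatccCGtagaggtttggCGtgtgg
INO80E: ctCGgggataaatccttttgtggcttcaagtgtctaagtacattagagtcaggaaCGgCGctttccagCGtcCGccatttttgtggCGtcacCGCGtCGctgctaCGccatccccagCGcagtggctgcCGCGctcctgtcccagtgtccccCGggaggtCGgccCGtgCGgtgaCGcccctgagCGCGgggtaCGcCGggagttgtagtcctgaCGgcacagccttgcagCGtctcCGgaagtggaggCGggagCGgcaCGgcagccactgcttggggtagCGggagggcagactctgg
YPEL3-DT: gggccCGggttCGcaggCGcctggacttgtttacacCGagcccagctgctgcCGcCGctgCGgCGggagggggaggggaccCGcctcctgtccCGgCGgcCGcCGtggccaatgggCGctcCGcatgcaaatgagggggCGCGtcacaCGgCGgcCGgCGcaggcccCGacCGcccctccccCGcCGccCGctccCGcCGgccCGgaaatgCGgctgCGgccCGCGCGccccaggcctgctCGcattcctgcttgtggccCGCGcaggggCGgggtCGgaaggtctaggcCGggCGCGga

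The MVP-DT window holds 4 CpG dinucleotides (56.3% GC), fewer than the median of 28 over 31 windows of 22 matched genes of the interval and the median of 14 over all 35116 windows. The KCTD13-DT window holds 36 (74.0% GC), that of INO80E 29 (65.3%) and that of YPEL3-DT 42 (78.3%). The windows of the pairs shared up to 194 bases for MVP-DT and MVP, 148 for KCTD13-DT and KCTD13, 244 for INO80E and HIRIP3, and 284 for YPEL3-DT and YPEL3. The median GC content was 66.0% in the interval's windows and 58.7% in all windows.

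No gene was called in the pairs other than that of AC009133.14. CTD-2574D22.2 (KCTD13-DT) had 80.9, 31.6, 72.4 and 49.6 normalized counts (Log2FC 0.12, SE 0.81), beside 0.04 for KCTD13. RP11-455F5.3 (YPEL3-DT) had a Log2FC of 0.13 (SE 1.07) from a low level, beside 0.21 for YPEL3. HIRIP3 and INO80E stood at 0.07 and 0.30, and SEZ6L2 and ASPHD1 at -0.03 and 0.08. The sixth pair, DOC2A with C16orf92, could not be compared because C16orf92 was at or under the limit.

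Letters of 2 motifs were searched on both strands of the windows, that of NRF1 (GCGC, any 1 base, then TGCGC), the activator the study examined at another gene, and that of MAZ (GGGAGGG). The NRF1 letters were found in 4 of the 31 windows (12.9%), those of KCTD13, KCTD13-DT, TAOK2 and HIRIP3, and in 5.78% of all windows. The windows of KCTD13 and KCTD13-DT overlap. The MAZ letters were found in 14 windows (45.2%) of 11 genes, and in 26.6% of all windows. The windows of MVP-DT and MVP held neither. These matches describe the letters only, and the interval's windows are richer in GC than the rest.

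Known partners of the interval's proteins were measured in 18 of 18 cases, and 0 were called or had an unadjusted p under 0.05 by the DESeq2 Wald test. Their Log2FC values ran from -0.39 for KMT2D, the histone methyltransferase whose complex holds PAGR1, to 0.76 for STX1A, the syntaxin of synaptic vesicle fusion. STX1A had 314 and 997 normalized counts in control and 1242 and 984 in AP1AR-DT_OE, with overlapping groups. CUL3 and RHOA, partners of KCTD13, stood at -0.10 and 0.11, and HIRA, the partner of HIRIP3, at 0.10.

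On either side of the interval, the 750 kb below held 26 genes and the 750 kb above held 45. None of these was called, and 1 and 0 had an unadjusted p under 0.05 by the DESeq2 Wald test. The median Log2FC of those with a mean of at least 50 was 0.03 below and 0.01 above, beside 0.03 in the interval.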

How the data were processed

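The 4 SK-N-SH libraries were prepared with an Illumina TruSeq RNA kit, per the labels. The authors' notes on the deposited counts name TopHat2 2.0.4, SAMtools, HTSeq, Cuffdiff and edgeR 2.6.12 with hg19, per the labels, while the paper's methods name HISAT2, hg19 and StringTie with its Python script for gene counts, and DESeq2. The annotation is not given in the sources used here. The deposited counts are whole numbers without normalization. Their low values piled up at 4 (3287 entries, against 2136 at 3 and 1509 at 5), so 1 read pair was taken as 4 counts. Columns of the authors' own fold changes and p-values were not used. Gene coordinates in the table are GRCh38.

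All 24014 genes were fitted with DESeq2 1.42.0 (R 4.3.3; median-of-ratios size factors 0.878, 1.296, 0.912 and 1.008; two-sided Wald test, AP1AR-DT_OE against control, no covariate) with Benjamini-Hochberg adjustment and default independent filtering, and called at an adjusted p under 0.05. The script was tested on simulated data. Genes of the interval were described when their mean was at least 50 normalized counts, with the others listed. Strand, biotype, exons and GC content came from GENCODE 44 on GRCh37, matched by gene ID for 23954 genes. RefSeq windows were matched by symbol. Members, roles, partner and marker lists were chosen with earlier results of these data known. Alternatives were edgeR 4.0.16 (quasi-likelihood test), TMM factors, the likelihood-ratio test, a filter of 10 counts in 2 libraries, dropping independent filtering, a replicate block, counts divided by 4, leaving out each library and, added after seeing the data, a GC correction alone or beside the block and edgeR with the block. Some items of the partner and marker lists are not reported here.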

Additional observations from a re-analysis of the deposited data

How the results depend on the processing

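The call of AC009133.14 and its direction held under 13 of 14 alternatives. The exception was edgeR's quasi-likelihood test without a block (Log2FC -4.72), which called 0 genes of the interval and 0 of all genes (112 at an unadjusted p under 0.05); AP1AR-DT itself was at 6.60 with an adjusted p of 0.39 there. Leaving out 1 library gave -5.42 to -3.34 for AC009133.14 and 6.02 to 8.05 for AP1AR-DT, with 1 gene of the interval called each time, where a lone library is assumed to vary like the other group. On the log2 scale, the group ratio of the sum of AC009133.14 with MAZ, PRRT2 and MVP then ranged from -0.31 to 0.57, and that of the interval's share of counts from -0.10 to 0.29. Over all genes, 33 were called, and 15 with counts divided by 4, 55 and 60 with the GC correction without and with the block, and 45 to 90 without 1 library.

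The labels name no batch, so same-numbered libraries share only a number. Their deviations from the group mean correlated at 0.41 over 16730 genes. With 2 libraries in a group, the other pairing gives the same value with the opposite sign, so this cannot show a shared batch. With the replicate block, 37 genes were called in all (44 by edgeR with the block), and AC009133.14 was the only call in the interval under both. MAZ reached an unadjusted p of 0.0205 with the block, 0.00627 with the block and GC correction and 0.0466 by edgeR with the block, with adjusted p-values near 1.00. With the block by DESeq2 and by edgeR, the sign turned positive for AC009133.15 (0.079 and 0.070), CDIPT (0.020 and 0.013), SEZ6L2 (0.036 and 0.029), TAOK2 (0.015 and 0.0088) and FAM57B (0.030 and 0.023).

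The other 25 genes gave 350 values over 14 alternatives, with 0 calls and 46 changes of sign among 20 genes whose Log2FC was within 0.21 of 0. Leaving out 1 library moved these 20 across 0: QPRT (-0.28 to 0.24), AC009133.15 (-0.60 to 0.87), PRRT2 (-0.48 to 0.24), MVP (-0.34 to 0.51), CDIPT (-0.25 to 0.31), SEZ6L2 (-0.40 to 0.50), ASPHD1 (-0.19 to 0.41), KCTD13 (-0.26 to 0.43), CTD-2574D22.2 (-0.40 to 0.95), TMEM219 (-0.20 to 0.43), TAOK2 (-0.53 to 0.66), HIRIP3 (-0.12 to 0.30), DOC2A (-0.62 to 0.25), FAM57B (-0.30 to 0.37), ALDOA (-0.18 to 0.56), TBX6 (-0.56 to 0.98), YPEL3 (-0.16 to 0.72), MAPK3 (-0.18 to 0.64), CORO1A (-0.23 to 0.57), SLX1A-SULT1A3 (-0.32 to 0.16). The cause was not tested. Depth limits the 9 genes under a mean of 50 counts, and 2 libraries per group limit all others.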
